A study of Mus musculus with 4 samples.

Results

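The genes described here are the ion channel genes detected in mouse pancreatic islet cells. They were chosen by symbol: potassium channel subunits (symbols beginning with Kcn), voltage-gated calcium channel subunits (Cacna, Cacnb, Cacng), voltage-gated sodium channel subunits (Scn), hyperpolarization-activated channels (Hcn), TRPM cation channels (Trpm) and Abcc8, the regulatory subunit of the ATP-sensitive potassium channel. Of 19074 genes listed, 130 matched these symbols, and the 104 with at least 50 UMIs (unique molecular identifiers, each counting 1 captured RNA molecule) over all libraries were kept. Just inside this minimum were Kcnf1 with 50 UMIs and Cacna1e with 53. Just outside it were Cacna1f with 48 and Kcnd3 and Kcnq5 with 45 each. A gene can pass this minimum only through the group in which it is high, and then had to differ. Of the called genes described below, this holds for Kcnj5, Cacng3 and Kcns3 (knockout beta cells), Kcnf1 (wild type beta cells) and Kcnd2 (knockout delta cells), whose changes are given as a description only. Among the 104, the rule also took 3 noncoding RNAs that carry a channel gene's name and encode no channel, Kcnq1ot1, Kcnab3os and Kcnmb4os2.

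Islets came from C57BL/6 mice of 2 genotypes, with 2 libraries each. Sel1L is the membrane partner of the ubiquitin ligase Hrd1 in ER-associated degradation, which removes misfolded proteins from the endoplasmic reticulum. The wild type group was Sel1Lf/f, that is, floxed mice without Cre, and the Sel1L knockout group was named Sel1LIns1 in the series text, so both carried the floxed allele and the deletion is tied to Ins1, an insulin gene used in beta cells. No group with Cre and intact Sel1L was analysed here, so an effect of Cre and one of the deletion cannot be told apart. Age is 7 weeks by the sample labels but 5 weeks by the series text. Islets recovered overnight in culture, were dissociated with trypsin and were profiled with droplet 3′ single-cell RNA sequencing. The labels do not say whether the libraries came from separate animals, so the p-values measure only the spread between these libraries.

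Libraries held 2483 to 5951 cells and 99156230 to 228515309 UMIs, and any pair of libraries shared 1 to 9 cell barcodes. Cells were classed by hormone RNA alone: beta cells had at least 10% of their UMIs from Ins1 and Ins2, alpha cells at least 3% from Gcg and delta cells at least 3% from Sst, the last 2 with under 5% insulin. This gave 3530 and 3474 wild type and 2385 and 1365 knockout beta cells, 1116, 942, 759 and 330 alpha cells, and 450, 526, 308 and 230 delta cells. Summed levels of the markers other than hormones were highest in the class they name. Beta cell markers stood at 5009 and 5109 UMIs per 1000000 UMIs outside 7 hormone genes (CPM) in wild type beta cells against 1722 and 1824 in knockout ones. The alpha and delta sums rest mostly on 1 gene each. In the first wild type library Ttr made up 19030 of 20760 CPM in alpha cells and Rbp4 14920 of 15370 in delta cells. Most delta cells also passed 3% Ppy, the pancreatic polypeptide hormone: 352 and 370 of the wild type cells by library, 238 and 175 of the knockout cells. Sel1l itself checked little, because its 3′ counts stood at 125 and 124 CPM in wild type beta cells and 87.2 and 92.6 in knockout ones, while UMIs per cell went from 1.60 and 1.65 to 2.02 and 2.37. Whether the deleted part holds the counted 3′ end is not given in the sources used here. Beta cells of the genotypes also differed as a whole: median insulin took 68.1% and 68.7% of a wild type cell's UMIs and 40.0% and 43.8% of a knockout cell's, and median UMIs outside hormone genes were 12149 and 12555 against 21796 and 24001.

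That last difference sets the scale of every value below. Levels are given in these CPM, outside hormone genes, and changes are log2 ratios of knockout to wild type relative to the bulk of genes (TMM scaling). When beta cell sums were scaled by library size only, the median gene was higher in knockout cells by 0.91 on the log2 scale, and when scaled by cell number by 0.92. In alpha cells these shifts were 0.22 and 0.78, and in delta cells 0.17 and 0.71. A gene that fell relative to other genes can therefore have kept or gained UMIs per cell. Where a named fall that passed the test turned direction under the other scalings, this is stated. Falls without such a statement, among them those of Kcnh1 and Kcnip4, kept their direction but are smaller on those scalings.

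Islet hormone cells are electrically excitable. In beta cells, glucose metabolism closes the ATP-sensitive potassium channel, the membrane depolarizes, voltage-gated calcium channels open and calcium triggers insulin release. Voltage-gated and calcium-activated potassium channels then repolarize the membrane, tandem-pore-domain and inward-rectifier potassium channels help to set the resting potential, TRPM4 and TRPM5 carry a calcium-activated depolarizing cation current, and sodium channels sharpen action potentials, more so in alpha and delta cells than in mouse beta cells.

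The first comparison set the 3 wild type classes against each other, to show where each channel gene is used before the genotypes are compared. Of 90 ion channel genes tested, 67 differed between wild type beta and alpha cells, where 62.0% of all tested genes did so (edgeR, quasi-likelihood F test, p adjusted by Benjamini-Hochberg). Higher in beta cells were 34 (31.4% of all genes) and lower 33 (30.6%). Between beta and delta cells 66 differed, against 53.7% of all genes, with 24 higher in beta cells (29.0% of all genes) and 42 lower (24.7%). Between alpha and delta cells 57 differed, against 45.8%, with 19 higher in alpha cells (24.3% of all genes) and 38 lower (21.6%). The split depends on the scaling. With library size only it was 16 higher and 56 lower for beta against alpha (all genes 8.84% and 74.8%), 11 and 64 for beta against delta (3.85% and 83.0%), and 14 and 50 for alpha against delta cells (8.10% and 49.7%). By cell number it was 39 and 24 (54.3% and 13.5% of all genes), 39 and 31 (64.0% and 10.2%), and 21 and 32 (37.1% and 15.1%). The class differences named below kept their direction under both, except that of Kcnip1 between beta and delta cells. With a library left out, the counts called with TMM scaling fell most without either wild type library, as did the shares of all genes called.

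Trpm5, the calcium-activated cation channel gene, was higher in beta cells than in the other classes: it stood at 110 and 97.7 CPM in the 2 wild type beta libraries and at 0.640 and 0.282 in alpha cells, with 3.54 and 2.13 in delta cells. The difference from alpha cells was 7.58 on the log2 scale (SE 0.172, edgeR adjusted p = 3.0e-13). Kcnj12, an inward rectifier of the Kir2 family, had 847 UMIs in wild type beta cells, 1 in alpha cells and 0 in delta cells, which makes it at least 25.9-fold higher in beta than in delta cells when the 0 is set to a floor of 3 counts over the group. Kcnip1, a cytosolic partner of Kv4 potassium channels, was 44.4-fold higher in beta than in alpha cells (80.5 ± 5.73 against 1.58 ± 0.247 CPM, SD, n = 2 and 2, edgeR adjusted p = 2.6e-13). Hcn4, a pacemaker-type channel, and Kcnab3, a potassium channel beta subunit, were also higher in beta than in alpha cells, by 3.99 and 4.26 on the log2 scale. Kcnip1 and Hcn4 were not particular to beta cells: the log2 difference of alpha from delta cells was -4.87 and -3.54. Between beta and delta cells Kcnip1 differed by 0.60, which turned to -0.76 with library size only.

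Kcnk3, the acid-sensitive tandem-pore-domain channel TASK-1, was highest in alpha cells, with 97.8 and 98.1 CPM there and 1.35 and 1.01 in beta cells (93.7-fold, edgeR adjusted p = 1.5e-15). Kcnj3, a G-protein-gated inward rectifier, had 163 UMIs in wild type alpha cells and 5 in the larger number of beta cells. Among genes named as calcium channel auxiliary subunits, Cacng4 was 25.3-fold and Cacna2d4 15.5-fold higher in alpha than in beta cells. The log2 difference of alpha from delta cells was 2.6 for Kcnk3, 3.76 for Kcnj3, 3.04 for Cacng4 and 5.42 for Cacna2d4. Kcnk3, Kcnj3 and Cacng4 were also lower in beta than in delta cells (-3.94, -3.28 and -1.62). Scn3b, a sodium channel beta subunit, was 7.22-fold higher in alpha than in beta cells. It was higher still in delta cells, with a log2 difference of alpha from delta cells of -1.93.

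Delta cells, as classed here, held several genes at higher levels than the other classes. Most cells of this class also passed 3% Ppy, and the class contrasts were not run without them. Cacna1h, the pore subunit of a low-voltage-activated T-type calcium channel, reached 39.2 and 40.0 CPM in wild type delta cells against 0.288 and 0.281 in beta cells (edgeR adjusted p = 3.0e-10). Cacna2d2 (26.4 and 34.6 CPM in delta cells), Cacng2 (28.3 and 28.1), Cacna2d3 (13.6 and 12.3) and the voltage-gated potassium channel gene Kcna5 (15.2 and 14.9) were under 1 CPM in both wild type beta libraries. In wild type alpha cells Kcna5 was at 2.40 and 2.16 CPM and the other three were under 1. Kcnc2, a fast Kv3-type channel, had 138 UMIs in wild type delta cells, 1 in alpha cells and 113 in the larger number of beta cells. In the other direction, the ether-a-go-go-related channel Kcnh6 had 4 UMIs in all wild type delta cells, where beta cells had 724.

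**Figure D1:**
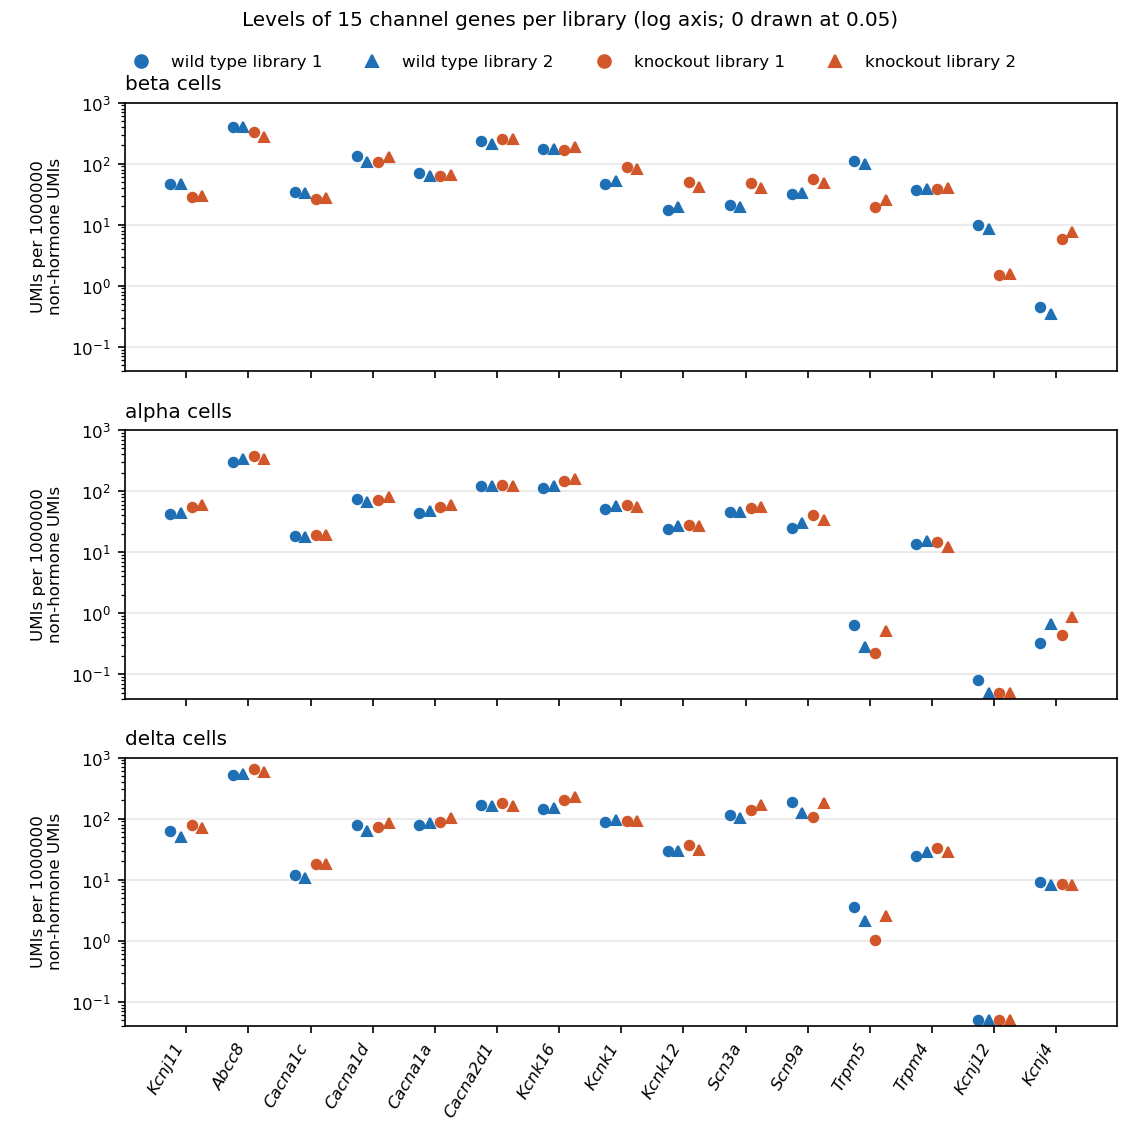
Each point is 1 library's level of 1 of 15 ion channel genes (CPM outside hormone genes, log axis, values of 0 drawn at 0.05) in beta, alpha and delta cells. Trpm5 and Kcnj12 sit high only in beta cells among these 3 classes and drop in both knockout libraries, while Kcnj4 rises there; the 2 KATP genes are lower in knockout beta cells on this scale but not per cell.

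The main comparison asked how loss of Sel1L through an insulin gene changed channel genes in beta cells. Of 90 genes tested, 38 passed the test, where 39.7% of all 15033 tested genes did. Higher in the knockout were 25 (19.4% of all genes) and lower 13 (20.3% of all genes). These counts take in genes that had to differ: Kcnj5, Cacng3 and Kcns3 among the higher and Kcnf1 among the lower. The channel families below were not tested as sets. The median change of the 90 was 0.22 on the log2 scale against 0.00 over all genes. All 25 genes called higher stayed higher and called under both other scalings. This does not test the rises, because these scalings move the bulk of genes up: 84.1% of all genes were called higher with library size only and 85.1% by cell number. Of the 13 called lower only 7 stayed lower. Still called lower were 4 of them with library size only (1.88% of all genes) and 5 with scaling by cell number (2.0% of all genes). Leaving out either knockout library lowered the count most, as it did the share of all genes called.

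The ATP-sensitive potassium channel is built from Kcnj11 (the pore, Kir6.2) and Abcc8 (the sulfonylurea receptor SUR1), neighbours on chromosome 7 (Kcnj11 at 46093953 to 46100764 and Abcc8 at 46104523 to 46180033, minus strand, GRCm38). Kcnj11 stood at 46.3 and 45.7 CPM in wild type against 28.7 and 29.6 in knockout beta cells. The knockout libraries were both below the wild type libraries, with a change of -0.68 on the log2 scale (SE 0.0602, edgeR adjusted p = 4.9e-04), but the direction turned to 0.23 with library size only and 0.24 with scaling by cell number. Abcc8 went from 393 and 405 CPM to 330 and 277, a change of -0.42 (SE 0.0980, edgeR adjusted p = 0.0156) that likewise turned to 0.49 and 0.50 and lost its call without the second knockout library (-0.29, edgeR adjusted p = 0.145). So both genes fell relative to other beta cell genes while their UMIs per cell did not fall. The share of beta cells with a Kcnj11 UMI shows the same split: 41.9%, 41.8%, 41.4% and 43.4% as counted, and 20.9%, 20.8%, 13.7% and 13.9% after each cell was thinned to 5000 UMIs outside hormone genes.

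Of 6 TRPM genes, 2 passed the test, both lower (20.3% of all genes were). Trpm5 went from 110 and 97.7 CPM to 19.2 and 25.7, a 4.73-fold fall (log2 change -2.24, SE 0.134, edgeR adjusted p = 1.4e-04). Every knockout value was far below both wild type values, and the fall held by cell number (-1.31) and with library size only (-1.34). In thinned cells, 39.3% and 35.0% of wild type but 8.28% and 11.7% of knockout beta cells had a Trpm5 UMI, with at most 0.658% of endothelial cells as the background from free RNA. Trpm4, the related calcium-activated channel, was at 36.5 and 38.8 CPM in wild type against 38.9 and 40.0 in knockout cells and did not pass the test (0.04, SE 0.0695, edgeR adjusted p = 0.653). Trpm7, a channel with a kinase domain, was called lower by 0.19 with TMM scaling (edgeR adjusted p = 0.0378), but it was higher by 0.71 and 0.73 under the other scalings and lost the call in each fit without 1 library (edgeR adjusted p from 0.0567 to 0.225). Trpm2, an ADP-ribose-gated channel, was at 5.41 and 5.09 CPM in wild type libraries, 6.25 and 5.23 in knockout ones, and did not pass.

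Among the 6 tested calcium channel pore genes, 1 was called higher and 1 lower (19.4% and 20.3% of all genes). Cacna1c (the L-type channel Cav1.2) went from 34.6 and 33.2 to 26.3 and 27.8 CPM, a change of -0.35 (SE 0.0645, edgeR adjusted p = 0.00621) that turned to 0.56 and 0.57 under the other scalings and lost its call without the first (edgeR adjusted p = 0.0847) or the second knockout library (edgeR adjusted p = 0.0541). Cacna1b (the N-type channel Cav2.2) rose from 5.23 and 5.48 to 8.21 and 8.60 CPM (0.63, SE 0.114, edgeR adjusted p = 0.00595), with edgeR adjusted p = 0.0685 without the second knockout library. Cacna1d (the L-type channel Cav1.3) was at 133 and 107 in wild type against 108 and 127 in knockout cells, and Cacna1a (the P/Q-type channel) at 71.1 and 63.1 against 62.7 and 66.1, so the genotypes overlapped for both. Of the auxiliary beta and alpha2delta subunits, which set the trafficking and gating of the pore, Cacnb2 rose from 25.6 and 25.9 to 34.8 and 34.2 (0.40, SE 0.0635, edgeR adjusted p = 0.00358). Cacna2d1 (239 and 208 against 250 and 251 CPM) and Cacnb3 (42.7 and 38.1 against 44.4 and 46.4) did not pass. Cacna2d4, Cacnb4 and Cacng3 were called higher at levels of 0.543 to 1.72 CPM in the knockout libraries.

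Of 7 tested inward rectifiers, 4 were called higher and 1 lower (19.4% and 20.3% of all genes), or 3 and 1 without Kcnj5. Kcnj4 (Kir2.3) was almost absent from wild type beta cells, at 0.443 and 0.345 CPM, and stood at 5.84 and 7.57 in the knockout, 16.6-fold higher (log2 change 4.05, SE 0.238, edgeR adjusted p = 1.4e-04). Kcnj12 (Kir2.2), of the same Kir2 family, went the other way, from 9.93 and 8.61 to 1.49 and 1.54 (6.21-fold lower, log2 change -2.64, SE 0.142, edgeR adjusted p = 1.1e-04), and it remained lower by 1.72 with scaling by cell number. In delta cells the 4 libraries held Kcnj4 at 8.99, 8.29, 8.60 and 8.25 CPM. Kcnj6 (a G-protein-gated channel) rose from 4.90 and 4.40 to 7.05 and 8.06 (0.67, SE 0.130, edgeR adjusted p = 0.00742), with edgeR adjusted p = 0.0844 without the second knockout library. Kcnj5 gave 3 UMIs in the wild type beta cells against 47 in the knockout ones, of 56 in all cells. Kcnj8 went from 8 to 57 UMIs, and since endothelial cells held it at 41.3 to 96.0 CPM, the endothelial markers of the beta sums belong beside it: 8 of 8 were detected, summing to 22.2 and 22.5 CPM in wild type against 45.2 and 25.5 in knockout libraries, and their part in the result was not tested.

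Tandem-pore-domain channels, which carry background potassium current, had 3 genes called higher and 1 lower of 8 tested (19.4% and 20.3% of all genes). Kcnk12 (THIK-2) rose from 17.4 and 19.8 to 50.03 and 41.9 CPM (1.28, SE 0.114, edgeR adjusted p = 4.9e-04). Kcnk1 (TWIK-1) rose from 46.7 and 51.4 to 89.4 and 82.3 (0.78, SE 0.0822, edgeR adjusted p = 8.2e-04). Kcnk13 (THIK-1), the closest relative of Kcnk12, fell from 6.16 and 4.30 to 1.11 and 1.31 (-2.14, SE 0.227, edgeR adjusted p = 8.6e-04). Macrophages held Kcnk13 at 38.2 to 55.3 CPM, and macrophage markers, all 9 detected, summed to 136 and 115 CPM in wild type against 80.5 and 68.9 in knockout beta sums. Their part in the fall of Kcnk13 was not tested. Kcnk16 (TALK-1), a channel well known in beta cells, was at 172 and 174 against 170 and 185 CPM and did not pass (0.01, SE 0.0719, edgeR adjusted p = 0.889). Kcnk10 (TREK-2) was called higher at a low level, 1.29 and 1.20 CPM in knockout cells.

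Voltage-gated potassium channels had 5 genes called higher and 2 lower of 16 tested (19.4% and 20.3% of all genes). Ether-a-go-go family genes split: Kcnh6 rose from 7.18 and 8.63 to 15.2 and 13.6 (0.84, SE 0.129, edgeR adjusted p = 0.00315) and Kcnh2 (hERG) from 35.3 and 34.7 to 48.6 and 46.8 (0.43, SE 0.0593, edgeR adjusted p = 0.00215). Kcnh1 instead fell from 16.7 and 24.6 to 7.23 and 10.1 (-1.29, SE 0.231, edgeR adjusted p = 0.00552), with edgeR adjusted p = 0.0521 without the first knockout library. At lower levels, Kcnc1 (12 to 95 UMIs) and Kcnc2 (113 to 246 UMIs) were called higher and Kcnd1 (3.93 and 3.73 to 1.67 and 1.57 CPM) lower, with edgeR adjusted p = 0.0505 for Kcnc2 without the second knockout library. Kcnip4, a Kv4 partner, was called lower (10.4 and 7.25 to 5.31 and 3.32 CPM, -1.03), but not without the first wild type (edgeR adjusted p = 0.0544) or the second knockout library (edgeR adjusted p = 0.116). Kcnab3 rose from 10.0 and 13.1 to 19.1 and 19.4 (0.71, SE 0.140, edgeR adjusted p = 0.00801), with edgeR adjusted p = 0.0510 and 0.0742 without the first and the second knockout library. Of the silent subunits, which act only in mixed channels, Kcns3 was called higher, and Kcnf1 gave 45 UMIs in the wild type beta cells against 0 in the knockout ones, at least 14.8-fold lower against a floor of 3 counts over the group.

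For calcium-activated channels, the large-conductance pore gene Kcnma1 was at 59.0 and 62.4 CPM in wild type against 51.2 and 55.1 in knockout cells and missed the threshold (-0.22, edgeR adjusted p = 0.0536), and its direction turned to 0.69 and 0.71 under the other scalings. Kcnmb2, its inactivating beta subunit, did not pass at 136 and 124 against 149 and 144. Kcnn4, the intermediate-conductance channel, rose from 0.621 and 1.12 to 5.82 and 5.09 (6.13-fold, log2 change 2.62, SE 0.281, edgeR adjusted p = 9.0e-04). Macrophages held Kcnn4 at 18.7 to 50.9 CPM, and the macrophage markers in the beta sums were lower in both knockout libraries, as given above. Their part in the change of Kcnn4 was not tested. Kcnmb1 was called higher at 100 against 40 UMIs. Kcnu1, a pH-gated relative of Kcnma1, was called lower (7.89 and 5.72 to 4.62 and 4.60 CPM), but its direction turned under the other scalings (0.32 and 0.34) and its call was lost without the first wild type library or either knockout library (edgeR adjusted p from 0.0976 to 0.177).

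Of 5 sodium channel pore genes tested, 2 were called higher (19.4% of all genes) and 3 did not pass. Scn3a (Nav1.3) rose from 20.7 and 19.8 to 47.5 and 39.9 CPM (1.09, SE 0.0919, edgeR adjusted p = 4.1e-04). Scn9a (Nav1.7) rose from 32.0 and 33.1 to 56.8 and 48.6 (0.68, SE 0.0874, edgeR adjusted p = 0.00166). The thinned shares bear the same order: 8.81% and 9.03% of wild type and 19.9% and 16.3% of knockout beta cells had a Scn3a UMI. Scn8a did not pass (26.0 and 31.0 against 29.6 and 28.5 CPM). Of 4 pacemaker-type genes, Hcn2 (14.2 and 13.8 to 20.3 and 18.1) and Hcn4 (10.7 and 11.4 to 15.1 and 15.3) each rose by 0.44. Both lost the call without the first knockout library (edgeR adjusted p = 0.0768 and 0.0648), and Hcn4 also without the second (edgeR adjusted p = 0.0866).

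**Figure D2:**
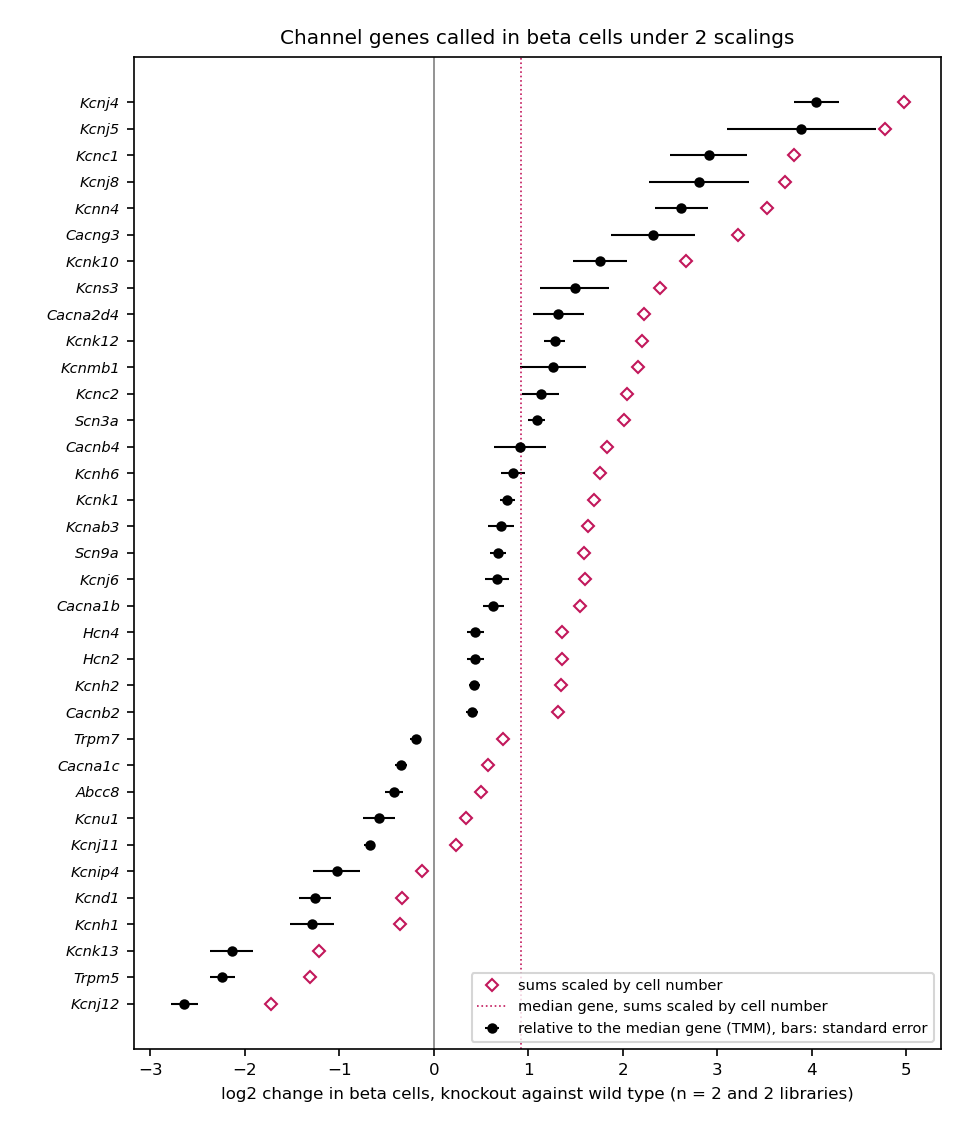
Filled points give the log2 change of 35 genes called in beta cells (knockout against wild type, n = 2 and 2 libraries, bars are standard errors) relative to the bulk of genes, and open diamonds the change with sums scaled by cell number; Kcnf1, at 0 in the knockout, is left out. The dotted line marks the median gene at 0.92 under the second scaling, where Kcnj11, Abcc8, Cacna1c, Kcnu1 and Trpm7 lie above 0, while Trpm5 and Kcnj12 lie below 0 under both.

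**Figure D3:**
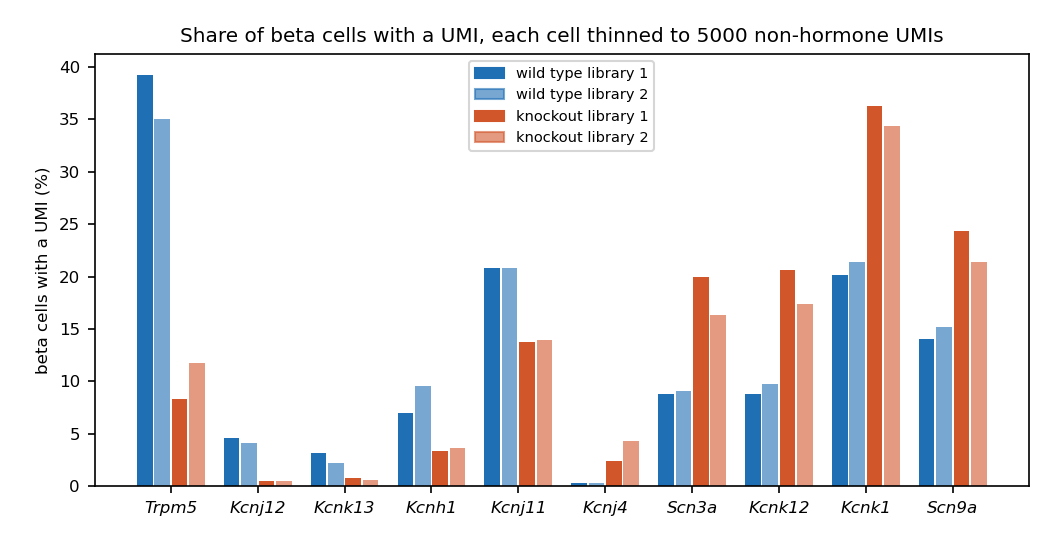
Bars give the percentage of beta cells with at least 1 UMI of 10 ion channel genes in each library after every cell was thinned to 5000 UMIs outside hormone genes, leaving out 149, 95, 30 and 34 shallower cells of the libraries in the order drawn. Trpm5 drops from 39.3% and 35.0% to 8.28% and 11.7%, and Kcnk1 climbs from 20.1% and 21.3% to 36.3% and 34.3%.

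The promoters of the members with the clearest changes are shown because these genes moved in opposite directions in the same cells. RefSeq start sites of build GRCm38.p6 were found for 75 of the 104 genes, with 107 windows of 250 bases upstream of a start. Given 5′ to 3′ on the gene's strand are the windows of the inward rectifier and cation channel genes that fell and of the inward rectifier and tandem-pore genes that rose, with capitals marking the letters TGCTGA or their reverse complement:
Trpm5 (chr7:143094643-143094892, minus strand): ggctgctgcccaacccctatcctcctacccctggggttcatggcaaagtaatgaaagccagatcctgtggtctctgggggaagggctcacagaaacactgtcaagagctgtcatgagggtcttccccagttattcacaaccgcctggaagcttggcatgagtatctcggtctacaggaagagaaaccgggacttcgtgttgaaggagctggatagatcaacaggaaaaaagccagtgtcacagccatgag
Kcnj12 (chr11:61065554-61065803, plus strand): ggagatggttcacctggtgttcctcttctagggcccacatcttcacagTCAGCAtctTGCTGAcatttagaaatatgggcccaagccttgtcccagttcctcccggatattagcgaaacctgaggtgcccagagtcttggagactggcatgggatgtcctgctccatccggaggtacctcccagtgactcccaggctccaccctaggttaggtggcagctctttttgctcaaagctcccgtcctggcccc
Kcnj4 (chr15:79505242-79505491, minus strand): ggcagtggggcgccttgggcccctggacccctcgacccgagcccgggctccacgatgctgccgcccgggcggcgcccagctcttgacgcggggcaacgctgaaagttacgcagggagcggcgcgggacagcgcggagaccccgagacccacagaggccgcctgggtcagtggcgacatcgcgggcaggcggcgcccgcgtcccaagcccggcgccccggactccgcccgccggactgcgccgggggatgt
Kcnk12 (chr17:87797995-87798244, minus strand): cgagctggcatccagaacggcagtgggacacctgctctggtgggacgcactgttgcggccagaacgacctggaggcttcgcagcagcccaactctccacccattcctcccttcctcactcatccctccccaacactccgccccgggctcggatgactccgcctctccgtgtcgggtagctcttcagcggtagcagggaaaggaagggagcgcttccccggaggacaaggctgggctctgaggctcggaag

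TGCTGA is the core of the element bound by large Maf factors, a family that includes the beta cell factor MafA. Searched on both strands, it occurs in 16.1% of all 32851 windows of this length and in 15 of the 107 windows of ion channel genes. The Kcnj12 window, which lies 43240 bases from the start of the longest annotated gene model, holds it on both strands, 202 and 193 bases before the start site, and the Trpm5, Kcnj4 and Kcnk12 windows do not hold it. Windows of genes called lower held it in 5 of 11 cases (45.5%, from Cacna1c, Kcnip4 and Kcnj12), and those of genes called higher in 3 of 30 (10.0%). By gene, that is 3 of 8 called lower and 3 of 21 called higher. Of the lower genes, Cacna1c turned higher under the other scalings, and Cacna1c and Kcnip4 both lost their call in fits with a library left out, as given above. Binding by a Maf factor was not tested. Cacna1c and Kcnip4 supply 2 windows each, and those of Kcnip4 lie 239248 and 925225 bases and the farther one of Cacna1c 438444 bases from the start of the longest model. The motif TGACGTCA was in 1.55% of all windows and in 0 of 107, and TTCAGCACC, which overlaps the reverse complement of TGCTGA, was in 0.301% of all windows and in 1 of 107. A match describes letters in the window only, and 3′ reads do not show which start site these cells used. By GC content the windows differ, at 52.8% for Trpm5, 56.0% for Kcnj12, 77.2% for Kcnj4 and 64.8% for Kcnk12.

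In alpha cells, 8 of 63 genes tested were called, where 12.4% of all genes were. All 8 were higher (4.87% of all genes), and 0 were lower (7.52% of all genes) with edgeR, limma-voom and DESeq2. At an unadjusted p under 0.05, edgeR gave 18 higher and 2 lower. Kcnj11 rose from 42.1 and 44.5 to 55.8 and 59.3 CPM (0.30, SE 0.0751, edgeR adjusted p = 0.0395), opposite to its fall among beta cell genes. Kcnk16 rose from 113 and 120 to 149 and 156 (0.28, SE 0.0657, edgeR adjusted p = 0.0312). Cacnb2 (27.7 and 28.3 to 41.7 and 37.6 CPM) and Kcnh2 (25.2 and 28.0 to 36.0 and 36.4) rose by 0.41 and 0.34. Kcnh1, which fell in beta cells, rose from 1.20 and 1.69 to 5.05 and 4.61 CPM (1.65, SE 0.319, edgeR adjusted p = 0.0195). The noncoding RNA Kcnq1ot1, which lies within Kcnq1 on the opposite strand (chromosome 7, 143203458 to 143296549), rose by 0.38, and whether counting used strand is not given in the sources used here. Without the first wild type, first knockout or second knockout library 0 of these genes were called (at an unadjusted p under 0.05, edgeR gave 10, 10 and 13 higher), where 0.462%, 0.0303% and 0.159% of all genes were. Without the second wild type library 1 was called (2.03% of all genes), and DESeq2 called 1.

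Delta cells gave 4 calls in 57 genes tested, where 6.48% of all genes were called. All 4 were higher (2.32% of all genes), and 0 were lower (4.16% of all genes) with edgeR, limma-voom and DESeq2, while an unadjusted p under 0.05 in edgeR was met by 11 higher and 1 lower. Kcnk16 rose from 146 and 148 to 205 and 226 CPM (0.46, SE 0.0883, edgeR adjusted p = 0.0201). Kcnk3 rose from 19.6 and 17.4 to 30.2 and 32.4 (0.67, SE 0.158, edgeR adjusted p = 0.0361). Kcnd2, a Kv4 pore gene, was at 1.91 and 0.850 against 12.8 and 6.35 CPM, from 11 UMIs in wild type and 69 in knockout cells. Those 69 of its 100 UMIs took it past the minimum, so its change is a description, and 3 of the 4 calls remain without it. Kcnq1ot1 rose by 0.44 (382 and 349 to 495 and 561 CPM, SE 0.0906, edgeR adjusted p = 0.0245). With Ppy-positive cells left out, an alternative chosen after seeing the data, 34 genes could be tested and 0 were called (edgeR, with 4 higher and 1 lower at an unadjusted p under 0.05), where 0.927% of all genes were. Kcnk16 was then at 0.40 (edgeR adjusted p = 0.184), Kcnk3 at 0.77 (edgeR adjusted p = 0.286) and Kcnq1ot1 at 0.12 (edgeR adjusted p = 0.710). With a library left out, the number of calls moved with the share of all genes called. Without the second wild type library each of the 4 genes lost its call. The changes were then 0.46 for Kcnk16, 0.57 for Kcnk3, 2.23 for Kcnd2 and 0.37 for Kcnq1ot1.

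Because a call in 1 class and none in another does not show that they differ, the change in beta cells was tested against that in alpha and delta cells of the same libraries. Against alpha cells, 16 of 90 genes differed (24.1% of all genes), 7 with the higher change in beta cells (12.2% of all genes) and 9 with the lower (11.8%). Against delta cells, 12 differed (17.5% of all genes), 5 higher (8.78%) and 7 lower (8.68%). This split too depends on the scaling: with library size only it was 37 higher and 2 lower against alpha cells (62.8% and 1.70% of all genes) and 38 higher and 0 lower against delta cells (59.7% and 1.02%; edgeR, with 42 higher and 0 lower at an unadjusted p under 0.05). By cell number it was 7 and 5 (16.3% and 6.20%) and 10 and 4 (16.1% and 3.49%). Leaving out any library lowered both counts, as it did the shares of all genes called. Kcnk12 (1.34 against alpha and 1.19 against delta cells), Kcnk1 (0.82 and 0.91), Scn3a (0.99 and 0.71) and Kcnj4 (3.84 and 4.16) rose more in beta cells than in either class. For Kcnj4 the edgeR adjusted p was 8.7e-04 against alpha and 1.5e-05 against delta cells. Kcnj11 differed by -0.96 (SE 0.0994, edgeR adjusted p = 1.7e-05) and -1.03 (SE 0.119, edgeR adjusted p = 6.1e-05). Kcnh1 had the largest difference of opposite changes, at -2.98 against alpha cells (SE 0.270, edgeR adjusted p = 6.0e-06). Abcc8 differed by -0.48 and -0.54 and Kcnk16 by -0.25 and -0.43, but with library size only these turned to 0.20 and 0.20 for Abcc8 and to 0.42 and 0.31 for Kcnk16. Under that scaling Kcnj11 stayed lower but missed the threshold, at -0.28 and -0.29 (edgeR adjusted p = 0.059 and 0.0851). Cacna1c differed only from delta cells by this test (-0.91, SE 0.166, edgeR adjusted p = 0.00196), where it stood at 11.7 and 10.8 in wild type and 17.7 and 18.1 CPM in knockout libraries. With library size only, that difference of Cacna1c was -0.17 and did not pass (edgeR adjusted p = 0.464).

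**Figure D4:**
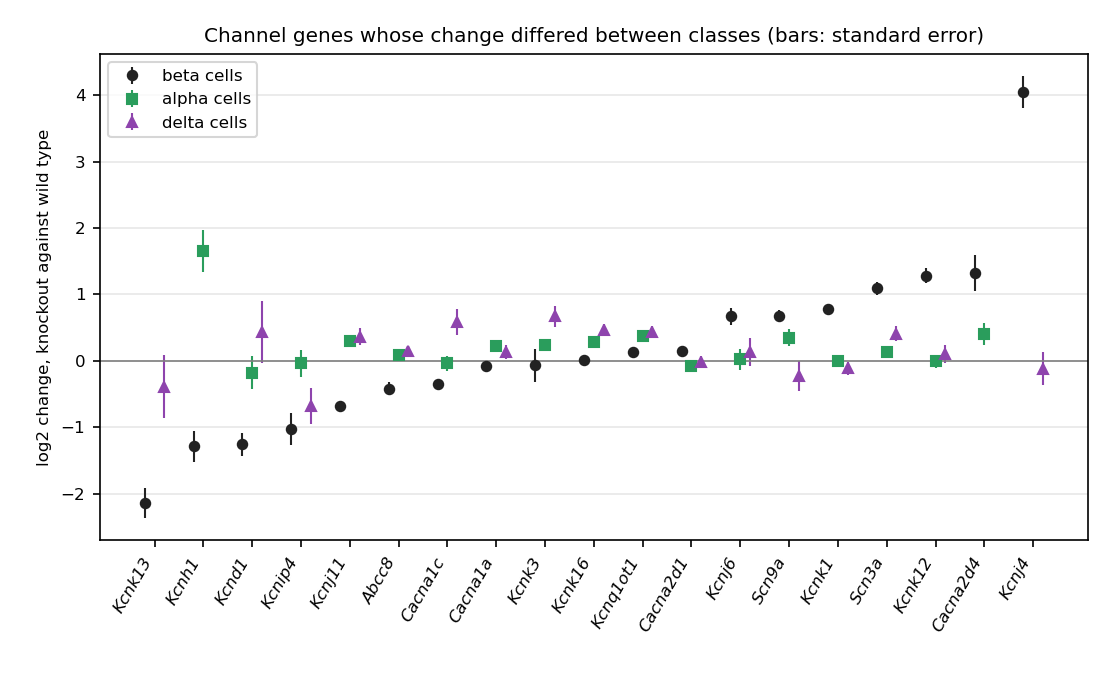
For 19 ion channel genes whose change differed between beta cells and alpha or delta cells, points give the log2 change of knockout against wild type in each class, with standard errors (n = 2 and 2 libraries; classes in which a gene was not tested have no point). Kcnh1 lies at -1.29 in beta cells and 1.65 in alpha cells, and Kcnj11 below 0 in beta cells and above 0 in the other classes; with other scalings the beta cell changes of Kcnj11, Abcc8, Cacna1c, Cacna1a and Kcnk3 lie above 0.

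Other transport genes were read from lists drawn up with earlier results of these data known. Beside the counts below, 19.4% of all tested genes were called higher in beta cells and 20.3% lower, and the lists were not tested as sets. Of 15 tested genes for calcium stores, 2 were called higher and 5 lower in beta cells. The inositol trisphosphate receptor genes Itpr1 and Itpr2 rose by 0.62 and 0.53, while Itpr3 was called lower by TMM scaling (-0.28, edgeR adjusted p = 0.0327) and turned to 0.62 and 0.64 under the others. Atp2a2, the SERCA2 calcium pump that fills the endoplasmic reticulum, was lower by TMM scaling only (-0.90, SE 0.0799, edgeR adjusted p = 5.0e-04, against 0.01 with library size only and 0.03 by cell number). Pumps and exchangers gave 4 higher and 4 lower of 17, with the sodium pump subunits Atp1b2 at 0.64 and Atp1b1 at -0.54, the latter turning to 0.37 and 0.38 under the other scalings. Chloride and volume channels gave 6 higher and 5 lower of 18. Clcn5 rose by 1.12, and Ttyh1 fell by 3.65 (SE 0.220, edgeR adjusted p = 1.5e-04), lower also by 2.74 and 2.72 under the other scalings. Other cation channels gave 6 higher and 3 lower of 20, among them Mcoln3 (-1.34), a lysosomal channel gene, and Abcc9 (1.98), the other sulfonylurea receptor gene. Ligand-gated channels gave 4 higher and 3 lower of 12, with the glutamate receptor gene Gria2 at 1.43 and the glycine receptor gene Glra1 at -1.17. Of 15 channel partners 5 were called, each of them higher, with Fgf12 at 0.82. In alpha and delta cells, where 12.4% and 6.48% of all genes were called, no list had more than 3 calls.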

How the data were processed

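Single-cell 3′ RNA sequencing of islets gave 4 libraries, 2 wild type and 2 Sel1L knockout. The deposited values are UMI counts per gene and cell; per the submitters' processing notes, the authors used Cell Ranger 3.0.0, Seurat 2.3.4 and the mm10 build, and whether counting used strand is not given in the sources used here. The deposited cells have at least 501 genes and at most 9.96% mitochondrial UMIs.

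Doublets (Scrublet scores, scanpy 1.11.5, 0.8% per 1000 cells) were removed: 283, 273, 150 and 49. Cells passing both the alpha and delta rules (3, 1, 1 and 1) were left out. Counts were summed per class and library and tested over all genes in R 4.3.3 by edgeR 4.0.16 (quasi-likelihood F test on TMM-scaled sums past filterByExpr), called at an adjusted p under 0.05; differences between classes used 1 fit of 12 sums with the library as a block. On simulated counts with 200 of 14978 genes changed by 1 (log2), the beta cell test recovered 98.5%, and 7.08% of its calls were false. The tests of beta minus alpha and beta minus delta effects recovered 77.0% and 59.5%, with 4.35% and 2.46% of calls false. The simulation used a fixed spread between libraries and balanced rises and falls in few genes. In the real beta cells 39.7% of genes were called, so these rates need not hold there. Same-numbered libraries of the genotypes were checked for shared deviations (correlations 0.06, -0.168 and -0.016 in beta, alpha and delta cells), which do not pair them.

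Members and lists were chosen with earlier results of these data known. Named genes are a panel, up to 3 called genes each way per role in beta cells with the smallest p, up to 5 each way elsewhere, at 5 or more CPM with the genotypes separated; others (Kcnf1, Kcnj5, Kcnj8, Kcnc1, Kcnd1, Kcnk10, Kcnmb1, Kcns3, Cacna2d4, Cacnb4, Cacng3 and those of the closing observations) were chosen after their values were seen. Not every gene in the counts is described here. Alternatives were DESeq2 1.42.0, limma 3.58.1 (voom), RLE, library size only, scaling by cell number, other filters on genes and cells, class rules, a replicate block and each library left out. Gene positions are from GENCODE vM21.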

Additional observations from a re-analysis of the deposited data

Results flagged for a closer look

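For these ion channel genes the change with genotype differed between beta cells and another class in edgeR's interaction test, which is what brings them here; no explanation was tested. Values are the log2 change in beta cells minus that in the other class.

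Against alpha cells the beta cell change was higher for Kcnj4 (3.84), a Kir2-family inward rectifier, Kcnk12 (1.34) and Kcnk1 (0.82), tandem-pore-domain channels, Scn3a (0.99), a sodium channel, Kcnj6 (0.65), a G-protein-gated inward rectifier, Cacna2d4 (0.96) and Cacna2d1 (0.25). It was lower for Kcnh1 (-2.98), Kcnk13 (-2.56), Kcnd1 (-1.05), Kcnip4 (-0.96), Kcnj11 (-0.96), Abcc8 (-0.48), Cacna1a (-0.29) and Kcnk16 (-0.25).

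Against delta cells the beta cell change was higher for Kcnj4 (4.16), Kcnk12 (1.19), Scn9a (0.92), Kcnk1 (0.91) and Scn3a (0.71). It was lower for Kcnd1 (-1.67), Kcnj11 (-1.03), Cacna1c (-0.91), Kcnk3 (-0.71), Abcc8 (-0.54), Kcnk16 (-0.43) and the noncoding RNA Kcnq1ot1 (-0.30). With library size only, which moved the median gene to 0.67 against alpha and 0.70 against delta cells, the sign turned for Abcc8 (0.20 and 0.20), Kcnk16 (0.42 and 0.31), Cacna1a (0.39 against alpha), Kcnk3 (0.03 against delta) and Kcnq1ot1 (0.44 against delta cells). Under that scaling Kcnd1 (-0.38 and -0.93), Kcnj11 (-0.28 and -0.29), Kcnip4 (-0.28 against alpha) and Cacna1c (-0.17 against delta cells) kept their sign but did not pass. Kcnk13 held few UMIs in alpha cells (3, 9, 7 and 7 in the 4 libraries).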

How the results depend on the processing

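Scaling moved the results most. With library size only, the called members numbered 76 in beta cells (72 higher, 4 lower; 86.0% of all genes were called), 21 in alpha (25.1%) and 10 in delta cells (10.3%), 39 for the beta minus alpha effect (64.5%) and 38 for the beta minus delta effect (60.7%). With sums scaled by cell number they numbered 77 in beta (72 higher, 5 lower; 87.1% of all genes), 47 in alpha (85.1%) and 46 in delta cells (79.1%). Without a filter on low counts alpha cells gave 14 calls (15.3% of all genes) and delta cells 7 (9.56%). DESeq2 gave 1 (6.4%) and 2 (3.47%). With Ppy-positive cells left out, delta cells gave 0 (0.927% of all genes). The cause of these moves was not tested, except that a scaling shifts all genes by its own construction.

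Leaving out each library in turn gave 21 to 38 called members in beta cells, 0 to 1 in alpha, 0 to 7 in delta cells, 8 to 12 for the beta minus alpha effect and 7 to 10 for the beta minus delta effect; the 3 wild type class contrasts kept within 1.5 times of their counts. With 1 library in an arm, that library is assumed to vary like the others.

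With library size only, these log2 changes turned positive in beta cells: Kcnj11 0.23, Abcc8 0.49, Cacna1c 0.56, Cacna1d 0.85, Cacna1a 0.82, Kcnb2 0.88, Kcnk3 0.84, Kcnma1 0.69, Kcnn3 0.90, Trpm7 0.71 and Kcnu1 0.32. The beta minus alpha effect turned for Abcc8 (0.20) and Kcnk16 (0.42), and the beta minus delta effect for Abcc8 (0.20), Kcnk16 (0.31) and Kcnk3 (0.03). With scaling by cell number the same genes turned in beta cells: Kcnj11 0.24, Abcc8 0.50, Cacna1c 0.57, Cacna1d 0.88, Cacna1a 0.84, Kcnb2 0.89, Kcnk3 0.85, Kcnma1 0.71, Kcnn3 0.91, Trpm7 0.73 and Kcnu1 0.34. Also by cell number, alpha cells turned for Cacna1c (0.73), Cacna1d (0.75), Cacna1g (0.75), Cacna2d1 (0.68), Kcnma1 (0.71) and Trpm4 (0.61), and delta cells for Cacnb3 (0.62), Cacna2d1 (0.68), Cacna2d2 (0.52), Scn9a (0.50) and Trpm7 (0.61). Changes called in neither setting that changed sign are not counted as turned; there were 10 with library size only and 3 by cell number.

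The replicate block, which pairs same-numbered libraries that the data do not pair, gave 46 calls in beta cells (43.7% of all genes). It gave 7 in alpha (11.3%) and 4 in delta cells (6.75%). Under it Kcnj2 (1.23) and Kcnma1 (-0.21) gained a call in beta cells, and Trpm7 (-0.19) and, in alpha cells, Kcnh2 (0.34) lost theirs. A crossed block gave 38, 11 and 5 (39.3%, 16.6% and 7.14% of all genes). Depth differed between classes, and its part in the number of calls was not tested: delta cells had 3150829 to 4704830 UMIs outside hormone genes per library, beta cells 34996205 to 55161847. Intervals of counting error are not given, since sums over cells were tested across libraries.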

Other observations

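Cells outside the hormone classes carried channel genes of their own, chosen here after their values were seen and given without a test. In endothelial cells, Kcne3, an auxiliary subunit of voltage-gated potassium channels, stood at 124 and 213 CPM (UMIs per 1000000 UMIs outside hormone genes) in wild type libraries, and 151 and 170 in knockout ones. Kcnk5, an alkaline-activated tandem-pore-domain channel, was at 95.3 and 95.3 against 153 and 142 CPM there. In beta cells Kcne3 reached at most 0.324 and Kcnk5 at most 0.435 CPM in any library. Kcnj8, the pore of the vascular ATP-sensitive potassium channel, was at 41.3, 96.0, 92.8 and 54.8 CPM in the endothelial cells of the 4 libraries.

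Macrophages held the glial-type inward rectifier Kcnj10 at 23.3, 12.5, 13.8 and 22.6 CPM, against at most 0.200 in any beta cell library. Kcnn4 in macrophages was at 26.6 and 18.7 CPM (wild type) against 50.9 and 47.1 (knockout), from 32, 21, 70 and 54 UMIs.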
